A study of Homo sapiens with 6 samples.

Results

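The genes examined were 10 human genes of high mobility group (HMG) chromatin proteins, chosen by gene symbol. They were HMGA1 and HMGA2, HMGB1, HMGB2 and HMGB3, and HMGN1, HMGN2, HMGN3, HMGN4 and HMGN5. HMGB4, which had no row of counts, was not among these 10 and was placed with other HMG-box genes. All 10 were listed among the 28862 genes of the count table, and 9 were among the 15829 genes with enough reads to be tested. The cells were SH-SY5Y, an established human line of neuroblastoma origin and neuron-like character, and their messenger RNA was sequenced in 6 libraries. Cells of 3 libraries had received a control plasmid, and the other 3 libraries carry the label SMN1 overexpression and are called SMN1-labelled here. SMN1 encodes the survival motor neuron protein, which helps load Sm proteins onto small nuclear RNAs. The study asked how the transcriptome of this line differs when SMN1 is overexpressed. The labels give neither the promoter of the plasmid, nor the time of harvest, nor whether clones were picked, and they do not call the libraries separate cultures. The p-values thus measure the spread between libraries alone, and that spread may be technical.

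HMG proteins are small, abundant, non-histone proteins that bind and bend DNA or bind nucleosomes. HMGA proteins bind AT-rich DNA through AT hooks and are high in embryonic and many tumour cells. HMGB proteins bend DNA with paired HMG boxes followed by an acidic tail, and HMGB1 also leaves the cell as an alarm signal that is sensed by receptors such as RAGE (the product of AGER) and TLR4 and that contributes to pain sensitisation. HMGN proteins bind the nucleosome core and compete with linker histone H1 for chromatin.

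Levels are in CPM (counts per 1000000 reads, with library sizes adjusted by TMM factors), and means carry the SD of n = 3 libraries. Differences are log2 fold changes of the SMN1-labelled relative to the control group, with the standard error (SE) and the Benjamini-Hochberg adjusted p of edgeR's quasi-likelihood test over all tested genes, called at 0.05. Library totals ran from 30379242 to 40275498 reads, and 3 reads, the limit that a count of 0 allows, corresponded to 0.0721 to 0.103 CPM. SMN1 was not raised in the libraries that bear its name: it was at 20.02 ± 0.432 CPM in the controls and 16 ± 1.08 CPM in them (log2 fold change -0.32, adjusted p 9.4e-05), and its near-identical copy SMN2, with which reads may be shared, was at 9.40 ± 0.358 and 7.63 ± 0.427 CPM. The direction of every difference is therefore tied to the label and not to a measured rise of SMN1. Exchanged labels would turn the sign of every fold change, and they cannot be told apart here from a plasmid message that was not counted under SMN1. Of 9 noradrenergic neuroblastoma markers, 8 were high enough to be tested, with a summed level of 4875 to 5027 CPM in the controls and 4999 to 5237 CPM in the SMN1-labelled libraries, while TH, the rate-limiting enzyme of dopamine synthesis, had 0 to 9 reads per library. Of these 8 markers 3 were called higher and 5 lower, but 4 higher and none lower with a correction for the length and GC content of genes. Of 8 immune and myeloid markers 5 were listed, and these summed to under 1 CPM in every library.

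Reads of HMGB1 deserve a look at sequence first, because the human genome holds many intronless copies (processed pseudogenes) of HMG messages. HMGB1 lies on chr13:30456704-30617597 (GRCh38, minus strand). Most pseudogene reads of the family were listed under HMGB1P5, at chr3:22381819-22382929 on the plus strand, and HMGB1P6, at chr15:71164770-71165415 on the minus strand. A stretch of 90 bases from the GENCODE v29 sequences is shown for the 3 loci. It covers coding positions 145 to 234 of HMGB1, counted from the A of the start codon. The stretch was picked for holding the most substitutions of HMGB1P5 and HMGB1P6 together, so no other gap-free coding stretch of this length held more. Capitals mark the 7 positions at which either pseudogene has another base than HMGB1.
HMGB1: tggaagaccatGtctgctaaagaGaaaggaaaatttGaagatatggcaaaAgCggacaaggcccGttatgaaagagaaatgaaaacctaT
HMGB1P5: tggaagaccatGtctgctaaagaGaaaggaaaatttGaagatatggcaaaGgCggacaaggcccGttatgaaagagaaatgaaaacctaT
HMGB1P6: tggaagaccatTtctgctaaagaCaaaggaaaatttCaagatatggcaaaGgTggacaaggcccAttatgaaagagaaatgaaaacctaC
HMGB1P5 carries 1 of these changes, A195G. HMGB1P6 carries 7, namely G156T, G168C, G181C, A195G, C197T, G209A and T234C, each written as the HMGB1 base, its coding position and the pseudogene base. Over the 648 coding bases HMGB1P5 had 98.6% identity with HMGB1 (3 substitutions and 6 gap bases) and HMGB1P6 had 98.0% (9 substitutions and 4 gap bases). Of the 499 windows of 150 bases, the length of 1 read, in the HMGB1 coding sequence, 160 (32.1%) occurred letter for letter in a listed pseudogene, against 200 of 5336 windows (3.75%) over the whole transcript. HMGN2 shared 79 of its 124 coding windows (63.7%) with its own pseudogenes. HMGA1, HMGB2, HMGB3, HMGN1 and HMGN3 shared none with theirs. HMGA2, HMGN4 and HMGN5 had no listed pseudogene of their own name, so nothing could be compared for them. Windows shared with another HMG gene or its pseudogenes were not counted.

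HMGB1 and HMGB2, the chief HMG-box proteins of the nucleus, were both lower in the SMN1-labelled libraries. Without a correction for length and GC content they were lower by about the same amount. HMGB1 was at 1563, 1557 and 1570.0 CPM in the controls and at 1038, 1033 and 1011 CPM in the SMN1-labelled libraries. The groups lay far apart, and replicates within a group differed little (1563 ± 6.61 against 1027 ± 14.6 CPM). HMGB1 was 1.52-fold lower (log2 fold change -0.61, SE 0.03, adjusted p 1.73e-13). HMGB2, at chr4:173331695-173335125 on the minus strand, a close relative linked to proliferating cells, was at 3034, 3012 and 3104 CPM in the controls and 2059, 2065 and 2075 CPM in the SMN1-labelled libraries. Again no library of one group came near the other group. HMGB2 was 1.48-fold lower (log2 fold change -0.56, SE 0.03, adjusted p 4.79e-13). With the correction for length and GC content the log2 fold changes lay further apart, at -0.89 for HMGB1 and -0.47 for HMGB2. The ratio of HMGB2 to HMGB1 reads barely moved: it was 1.94, 1.93 and 1.98 in the controls and 1.98, 2.00 and 2.05 in the SMN1-labelled libraries. These values were slightly higher in the second group without overlap, and the exact permutation test (two-sided, 3 against 3) gave p = 0.1, the smallest it can give. In bulk RNA, fewer cells of a type and less RNA per cell cannot be told apart.

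HMGB3, at chrX:150980509-150990775 on the plus strand, is the HMGB gene known from stem and progenitor cells. It was at 330.0, 327 and 341 CPM in the controls and at 294, 286 and 268 CPM in the SMN1-labelled libraries, without overlap. HMGB3 was 1.18-fold lower (log2 fold change -0.24, SE 0.04, adjusted p 7.99e-06). The 95% intervals of the log2 fold change were -0.31 to -0.16 for HMGB3, -0.63 to -0.50 for HMGB2 and -0.67 to -0.54 for HMGB1, and the differences between genes were not tested.

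**Figure D1:**
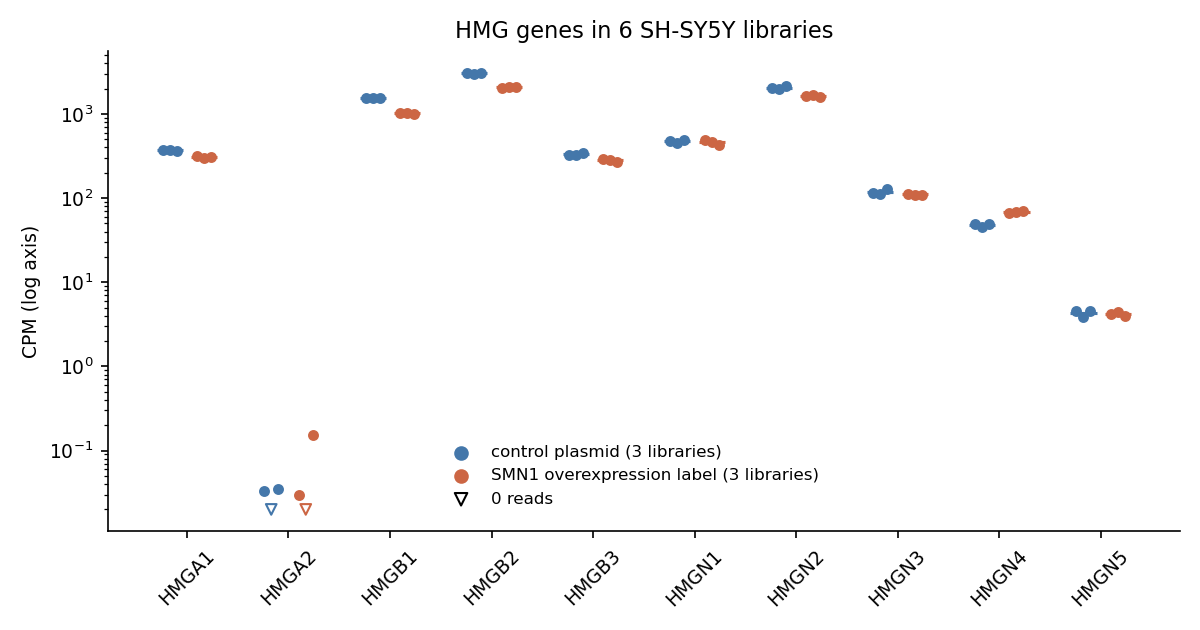
Levels of the 10 HMG genes in each library, in CPM on a log axis; each point is 1 library (blue, control plasmid; orange, SMN1 overexpression label), short bars are group means of 3, and open triangles mark 0 reads. HMGB1 and HMGB2 sit lower and HMGN4 higher in the SMN1-labelled libraries without overlap, while HMGA2 has 5 reads at most.

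The pseudogene rows of HMGB1 moved with the gene. HMGB1P5 was at 663 ± 65.8 CPM in the controls and 404 ± 31.6 CPM in the SMN1-labelled libraries (log2 fold change -0.71, SE 0.05, adjusted p 8.79e-11). HMGB1P6 was at 807 ± 20.7 and 484 ± 4.83 CPM (log2 fold change -0.74, SE 0.03, adjusted p 1.41e-14). Both rows were thus 1.64-fold and 1.67-fold lower, each without overlap between groups. Of 31 HMGB1 pseudogenes listed, HMGB1P10 was the next in reads, with 341, 220 and 485 reads in the controls and 237, 326 and 158 in the SMN1-labelled libraries. Its groups overlapped (log2 fold change -0.82, SE 0.19, adjusted p 0.000641).

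HMGB1 itself held 52.4%, 50.7% and 51.6% of the reads assigned to HMGB1, HMGB1P5 and HMGB1P6 in the controls, and 52.9%, 54.1% and 53.9% in the SMN1-labelled libraries. The 95% Wilson intervals of these shares, which cover counting error only, were narrow, the widest running from 53.6% to 54.3% in the third SMN1-labelled library. The share was 51.5% ± 0.843 against 53.6% ± 0.652, higher without overlap in the SMN1-labelled libraries (exact permutation p = 0.1, two-sided, the smallest possible). The share of HMGB1P5 was 21.8% ± 1.86 against 21.1% ± 1.18 and overlapped between groups (exact permutation p = 0.7). Summed over the 3 rows, the level was 2985, 3072 and 3043 CPM in the controls and 1963, 1911 and 1874 CPM in the SMN1-labelled libraries. With the reads of all its pseudogenes added, HMGB1 had a log2 fold change of -0.66 (adjusted p 3.59e-14 in the same edgeR test), somewhat lower than the -0.61 without them. Whether the reads listed under the pseudogenes came from those loci or from HMGB1 messages was not tested, and the sources used here do not say how the counting treated reads with several matches.

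**Figure D2:**
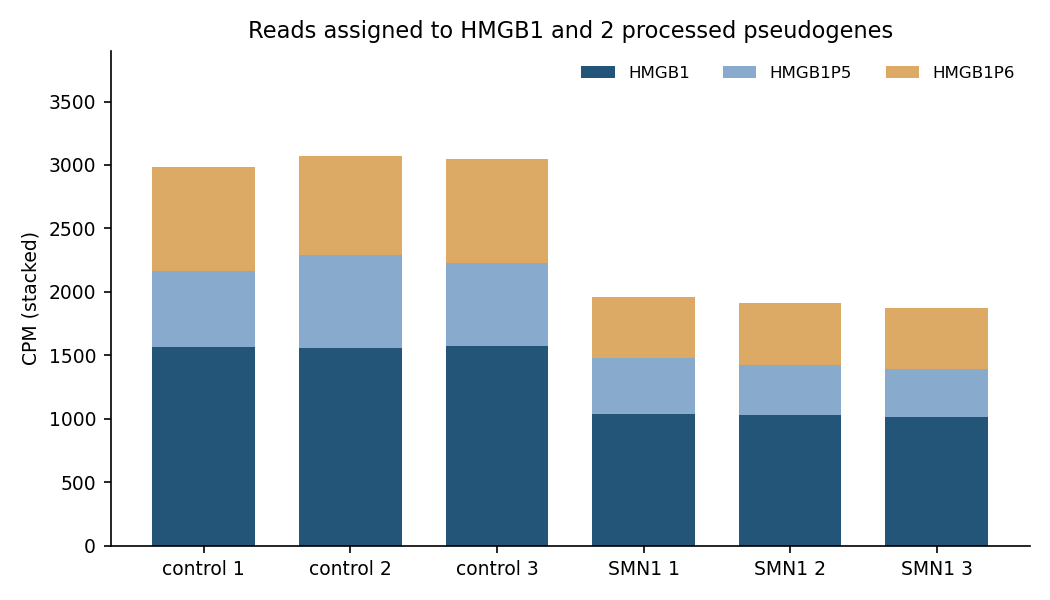
Reads assigned to HMGB1 and to 2 of its processed pseudogenes in each library, stacked, in CPM on a linear axis from 0. All 3 rows are lower in the SMN1-labelled libraries, whose sums lie between 1874 and 1963 CPM against 2985 to 3072 CPM in the controls.

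The remaining pseudogene rows were small. Of 95 pseudogene rows of the family, 82 had under 100 reads over the 6 libraries together. HMGN2P3, one of 28 HMGN2 pseudogenes, had 1003, 934 and 1013 reads in the controls and 880, 1128 and 836 in the SMN1-labelled libraries. Its log2 fold change of -0.32 (SE 0.05, adjusted p 1.22e-05) was close in size to that of HMGN2 itself. Not every pseudogene row moved with its gene. HMGA1P8 had 56, 46 and 51 reads in the controls and 86, 114 and 89 in the SMN1-labelled libraries. On the CPM scale it was higher without overlap (log2 fold change 0.65, SE 0.15, adjusted p 0.000952 in edgeR's test), whereas HMGA1 was lower.

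HMGA1, at chr6:34236873-34246231 on the plus strand, encodes the AT-hook protein that is abundant in many tumour lines. It was at 375.0, 373 and 359.7 CPM in the controls and at 319, 304 and 306 CPM in the SMN1-labelled libraries. All 3 control libraries were above all 3 SMN1-labelled libraries. HMGA1 was 1.19-fold lower (log2 fold change -0.25, SE 0.03, adjusted p 8.8e-07), but with each library corrected for length and GC content of the genes the value turned to 0.03 (adjusted p 0.391). Its direction therefore depended on that choice. HMGA2, at chr12:65824131-65966295 on the plus strand, is the embryonic AT-hook gene that let-7 microRNAs repress. It had 1, 0 and 1 reads in the controls and 1, 0 and 5 in the SMN1-labelled libraries, was at or under the limit set by 3 reads in 5 of 6 libraries, and was not tested.

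The nucleosome-binding HMGN genes differed among themselves. HMGN2, at chr1:26472450-26475972 on the plus strand, was at 2028, 2003 and 2129 CPM in the controls and 1652, 1704 and 1598 CPM in the SMN1-labelled libraries, without overlap. It was 1.24-fold lower (log2 fold change -0.31, SE 0.03, adjusted p 4.23e-08). HMGN4, an HMGN2-like gene without introns in its coding sequence at chr6:26538405-26546254 on the plus strand, went the other way. It was at 48.9, 45.2 and 49.2 CPM in the controls and 66.0, 67.9 and 70.2 CPM in the SMN1-labelled libraries. Every SMN1-labelled library was above every control, and HMGN4 was 1.42-fold higher (log2 fold change 0.51, SE 0.04, adjusted p 5.28e-10). For every 100 reads of HMGN2 there were 2.41, 2.26 and 2.31 reads of HMGN4 in the controls and 3.996, 3.987 and 4.39 in the SMN1-labelled libraries. The mean ratios were 2.33 ± 0.0777 and 4.13 ± 0.233, without overlap (exact permutation p = 0.1, two-sided, the smallest possible).

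HMGN1, at chr21:39342315-39349647 on the minus strand, a gene of the Down syndrome region, overlapped between groups. It was at 474, 456 and 495 CPM in the controls and 489, 469 and 434 CPM in the SMN1-labelled libraries. Its log2 fold change was -0.03 with a 95% interval of -0.12 to 0.05 (adjusted p 0.488 in edgeR's test), but -0.28 (adjusted p 1.92e-05) after the correction for length and GC content. HMGN3, at chr6:79201245-79234738 on the minus strand, a nucleosome-binding protein known from endocrine cells and the nervous system, was at 116, 112 and 129 CPM in the controls and 113, 109.9 and 109 CPM in the SMN1-labelled libraries. The groups overlapped, and its log2 fold change of -0.10 (SE 0.04, adjusted p 0.0406) passed the threshold narrowly and was lost without control 3 (adjusted p 0.359), without SMN1-labelled library 2 (0.118) or 3 (0.1), and with 8 other choices of analysis. HMGN3 shares 193 exonic bases with HMGN3-AS1 on the opposite strand. The sources used here do not say whether the counting used strand. HMGN5, the X-linked member with a long acidic tail, at chrX:81113701-81201942 on the minus strand, had 138, 118 and 131 reads in the controls and 139, 186 and 129 in the SMN1-labelled libraries. At this depth a difference was not detectable (log2 fold change -0.04, 95% interval -0.28 to 0.19, adjusted p 0.777 in edgeR's test).

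Over the family, 6 of the 9 tested genes were called lower, against 28.2% of all tested genes, and 1 was called higher, against 28.0%. The calls in either direction came to 7 of 9, against 56.2% of all tested genes. HMG genes are highly expressed, and 7 of them had a mean of at least 100 CPM. Of these 7, 6 were called lower, where 49.7% of all genes at that level were called lower. Of the 9, 5 were lower and 1 was higher without any overlap between groups, where 30.2% and 30.4% of all tested genes were so (60.7% in either direction). With the correction for length and GC content 5 of the 9 were called lower (HMGB1, HMGB2, HMGB3, HMGN1 and HMGN2) and 1 higher (HMGN4), against 25.0% and 22.6% of all tested genes (47.7% in either direction). The median log2 fold change of the 9 was -0.24, beside 0.0009 for all tested genes. Log2 fold changes over the whole table were related to gene length (Spearman rho 0.342) and GC content (rho -0.433) across 15662 genes, which are not independent replicates.

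**Figure D3:**
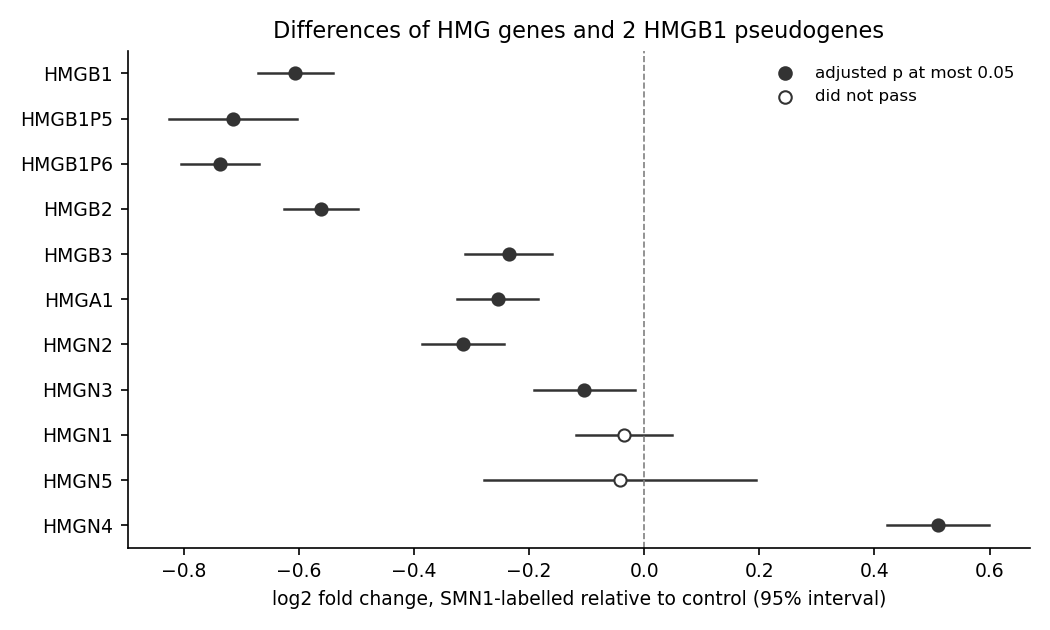
Log2 fold change of the 9 tested HMG genes and 2 HMGB1 pseudogenes, with 95% intervals from edgeR; filled points passed an adjusted p of 0.05. HMGB1 and HMGB2 are at -0.61 and -0.56, HMGN4 is at 0.51 on the other side of 0, HMGN1 and HMGN5 did not pass, and HMGA1 turns direction when length and GC content are corrected for.

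Together the 10 genes took 0.777%, 0.770% and 0.781% of all assigned reads in the controls and 0.619%, 0.624% and 0.608% in the SMN1-labelled libraries. The HMGB genes held 0.478% to 0.480% of reads in the controls and 0.347% to 0.350% in the SMN1-labelled libraries. The HMGN genes held 0.256% to 0.268% in the controls and 0.229% to 0.243% in the SMN1-labelled libraries.

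Levels between genes can be set side by side only per length, in the authors' FPKM. In the controls the order was HMGB2 at 1161 ± 5.82 FPKM, HMGN2 at 588 ± 12.3, HMGB1 at 186 ± 1.54, HMGA1 at 145 ± 4.93, HMGN3 at 107 ± 6.42, HMGN1 at 86.1 ± 2.68, HMGB3 at 77.7 ± 0.849, HMGN4 at 21.9 ± 0.898 and HMGN5 at 1.65 ± 0.146. No 2 neighbours in that order overlapped. In the SMN1-labelled libraries HMGB1, at 129.7 ± 1.28 FPKM, overlapped with HMGA1, at 129 ± 2.83 FPKM, and the order was otherwise the same. HMGB2 made up 81.5%, 81.4% and 81.6% of the summed FPKM of the 3 HMGB genes in the controls and 80.3%, 80.6% and 81.2% in the SMN1-labelled libraries. HMGN4 made up 2.66% to 2.82% of the summed HMGN FPKM in the controls and 4.35% to 4.82% in the SMN1-labelled libraries. Reads and FPKM side by side, with the total of counted reads as depth, gave a length of 8163 bases for HMGB1 and 685 bases for HMGB1P6. The exon length of HMGB1P6 in GENCODE v29 is 646 bases. HMGA1, HMGN3, HMGB1P5 and HMGB1P6 had the same ratio of computed to GENCODE v29 length, 1.061. Another depth total in the authors' FPKM would scale all computed lengths alike, so they are relative values. The lengths so computed are 1.66 times the GENCODE v29 exon length for HMGN4 and 1.35 times for HMGN2. They are 0.918 times that length for HMGB2 and 1.05 to 1.06 times for HMGA1, HMGB1, HMGB3, HMGN1, HMGN3 and HMGN5. The levels per length of HMGN4, HMGN2 and HMGB2 thus depend on the annotation. The exon length joins the exons of all transcripts. For HMGN1 and HMGB1 the computed lengths were 5347 and 8163 bases, against 1383 and 5485 bases in their principal coding transcripts. The order of levels and the shares within a family depend on the length chosen as well. The HMGB1 level also leaves out reads listed under its pseudogenes. Per length, HMGB1P6 (1142 FPKM in the controls) therefore stands above HMGB1, although it has fewer reads.

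Promoter sequences of RefSeq (GRCh38.p14, from 250 bases before to 50 bases after an annotated start) were matched for 8 of the 10 genes, with 12 starts between them. The 250 bases before a start are printed for HMGB1, which fell, for HMGN2, which fell less, and for HMGN4, which rose, because the 2 similar HMGN genes went opposite ways. Capitals mark CCAAT, or ATTGG where it stands on the other strand.
HMGB1, chr13:30465937-30466186, minus strand: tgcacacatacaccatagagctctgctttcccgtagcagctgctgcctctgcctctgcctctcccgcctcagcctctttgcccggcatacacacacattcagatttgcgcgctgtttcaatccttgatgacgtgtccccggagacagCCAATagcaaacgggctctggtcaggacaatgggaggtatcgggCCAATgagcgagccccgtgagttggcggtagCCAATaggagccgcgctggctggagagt
HMGN2, chr1:26472190-26472439, plus strand: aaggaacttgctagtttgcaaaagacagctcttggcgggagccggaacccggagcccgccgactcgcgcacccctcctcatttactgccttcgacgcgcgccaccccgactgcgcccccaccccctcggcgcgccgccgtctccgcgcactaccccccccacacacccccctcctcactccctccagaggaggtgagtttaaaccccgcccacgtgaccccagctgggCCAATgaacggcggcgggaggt
HMGN4, chr6:26538116-26538365, plus strand: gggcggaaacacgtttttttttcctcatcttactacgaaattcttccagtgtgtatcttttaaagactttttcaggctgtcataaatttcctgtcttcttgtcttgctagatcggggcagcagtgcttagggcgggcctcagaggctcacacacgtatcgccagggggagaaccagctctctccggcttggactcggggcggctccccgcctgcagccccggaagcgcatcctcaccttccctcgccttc
This HMGB1 promoter held 3 matches of CCAAT, the first 103 and the last 28 bases before the start, HMGN2 held 1 match 22 bases before the start, and HMGN4 held none. The 2 other HMGB1 starts held 1 match and none, the latter at the far 5′ end of the annotated gene. Among the genes not printed, HMGN1 and HMGN3, whose groups overlapped, held 2 matches each and HMGN5 held none. HMGB3 held 3 matches at 1 start and none at the other, and HMGA1 held 1 at each of 2 starts. One of these HMGA1 matches lay 38 bases after its start. Matches were not tested against fold changes. CCAAT, searched on both strands, was found in 8 of the 12 promoters, which belong to 6 of the 8 genes. It was found in 34.6% of 35116 promoters of the same length. GGGCGG, the core of a GC box, was found in 8 of the 12 and in 45% of all. TATAAA was found in 1 of the 12, that of HMGN2, and in 11.5% of all. The HMGN2 match does not lie within the 250 bases printed. TTTGGCGC and TGACGTCA were found in none of the 12 (0.652% and 1.85% of all). None of these motifs contains another, and a match describes the letters and not a bound factor.

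Genes that work with the HMG proteins were read from 8 lists, whose counts stand beside 28.0% higher and 28.2% lower among all tested genes and whose medians stand beside 0.0009. Receptors and extracellular partners of HMGB1 were mostly near silent in this line: of 19 genes 17 were listed and 8 were tested, with 2 higher and 2 lower and a median log2 fold change of -0.09. AGER, which encodes RAGE, had 95, 88 and 78 reads in the controls and 48, 77 and 56 in the SMN1-labelled libraries. On the CPM scale its groups did not overlap, 2.91 ± 0.239 against 1.66 ± 0.212 CPM (log2 fold change -0.80, SE 0.15, adjusted p 0.000114). TLR4 had 1 to 6 reads per library and TLR2 had 0 to 4, and neither was tested. CD24, a surface glycoprotein that binds HMGB1, rose from 71.6 ± 1.91 to 84.7 ± 2.68 CPM, and SDC1, a heparan sulfate proteoglycan, rose from 142 ± 1.10 to 162 ± 8.52 CPM (adjusted p 1.15e-05 and 0.000111 in edgeR's test).

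Of 18 proteins that import, export or modify HMGB1, all were tested, with 9 higher and 6 lower (median 0.09). The peroxiredoxins PRDX1 and PRDX2, which form the disulfide of HMGB1, both fell, PRDX2 from 137 ± 3.38 to 85.2 ± 3.85 CPM (log2 fold change -0.68, adjusted p 7.25e-13) and PRDX1 from 211 ± 4.38 to 164 ± 0.0202 CPM (-0.37, adjusted p 2.32e-09). PRKCA, a kinase of the protein kinase C family, rose from 204 ± 4.58 to 265 ± 4.34 CPM (log2 fold change 0.38, adjusted p 1.47e-09). With the correction for length and GC content 4 of the 18 were higher and 6 lower.

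Linker histones, which HMGN proteins displace from nucleosomes, included 7 genes, of which 4 were tested, 3 were lower and none was higher (median -0.77). H1-10 fell from 395 ± 5.62 to 215 ± 12.4 CPM (log2 fold change -0.88, adjusted p 9.82e-15), and H1-2 fell from 22.9 ± 0.501 to 7.35 ± 0.906 CPM (-1.63, adjusted p 1.72e-14). The message of H1-2, a replication-dependent histone, mostly lacks a poly(A) tail, and the libraries were made with a kit for mRNA.

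The SET complex, an endoplasmic reticulum-associated DNA repair complex that contains HMGB2, had 5 of 6 genes tested, with 3 lower and none higher (median -0.19). NME1, a nucleoside diphosphate kinase, fell from 341 ± 4.33 to 225 ± 9.84 CPM (log2 fold change -0.60, adjusted p 1.74e-12). ANP32A fell less (log2 fold change -0.24, adjusted p 7.79e-07), as did APEX1, an endonuclease of base excision repair (-0.19, adjusted p 1.54e-05). SET was at 1206 ± 15.9 and 1213 ± 27.2 CPM (log2 fold change 0.01, adjusted p 0.841 in edgeR's test), and PRUNE1 was at 13.7 ± 0.224 and 15.1 ± 0.492 CPM (0.13, adjusted p 0.0818). With the correction for length and GC content APEX1 lost its call (-0.04, adjusted p 0.315) and SET was called lower (-0.13, adjusted p 0.00226). On log2(FPKM + 1), where the median of all genes was 0.06, limma instead called SET higher (0.10, adjusted p 0.0134).

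The 21 other HMG-box genes showed no common direction, with 19 tested, 6 higher and 5 lower (median -0.04), and 4 higher and 7 lower with the correction. SSRP1, the HMG-box subunit of the histone chaperone FACT, fell from 2261 ± 112 to 1702 ± 4.52 CPM (log2 fold change -0.41, adjusted p 7.56e-10). TOX rose from 29.3 ± 0.939 to 41.0 ± 0.697 CPM (0.48, adjusted p 3.3e-09) and its relative TOX2 fell from 21.8 ± 0.943 to 14.1 ± 0.523 CPM (-0.63, adjusted p 4.19e-09). Of 25 other architectural chromatin proteins 24 were tested, with 8 higher and 4 lower (median 0.02). With the correction for length and GC content 3 were higher and 12 lower. On log2(FPKM + 1), where the median of all genes was 0.06 and not 0.0009, 15 of the 24 were higher and 2 lower. Among them BANF1, which bridges DNA and the nuclear envelope, fell from 108 ± 0.0908 to 68.4 ± 2.91 CPM (log2 fold change -0.66), LMNA, which encodes A-type lamins, fell from 447 ± 5.15 to 337 ± 10.9 CPM (-0.41), and WAPL, which releases cohesin, rose from 31.8 ± 0.875 to 44.6 ± 1.52 CPM (0.49), with adjusted p of 1.02e-12, 3.98e-10 and 2.69e-09 in edgeR's test.

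The list for the LIN28 and let-7 pathway, which is known to regulate HMGA2 messages, held 13 genes and no let-7 microRNA. Of these genes 10 were tested, with 7 higher and 1 lower (median 0.24), but 4 higher and 2 lower with the correction. IGF2BP3, an oncofetal RNA-binding protein, rose from 28.3 ± 1.34 to 47.0 ± 1.28 CPM (log2 fold change 0.73), DICER1, which cuts microRNA precursors, rose from 17 ± 0.510 to 26.7 ± 0.423 CPM (0.65), and ARID3B rose from 26.5 ± 0.286 to 39.3 ± 0.592 CPM (0.57), with adjusted p of 5.13e-12, 4.06e-10 and 2.05e-10 in edgeR's test. HMGA2 itself stayed at the read counts given above.

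**Figure D4:**
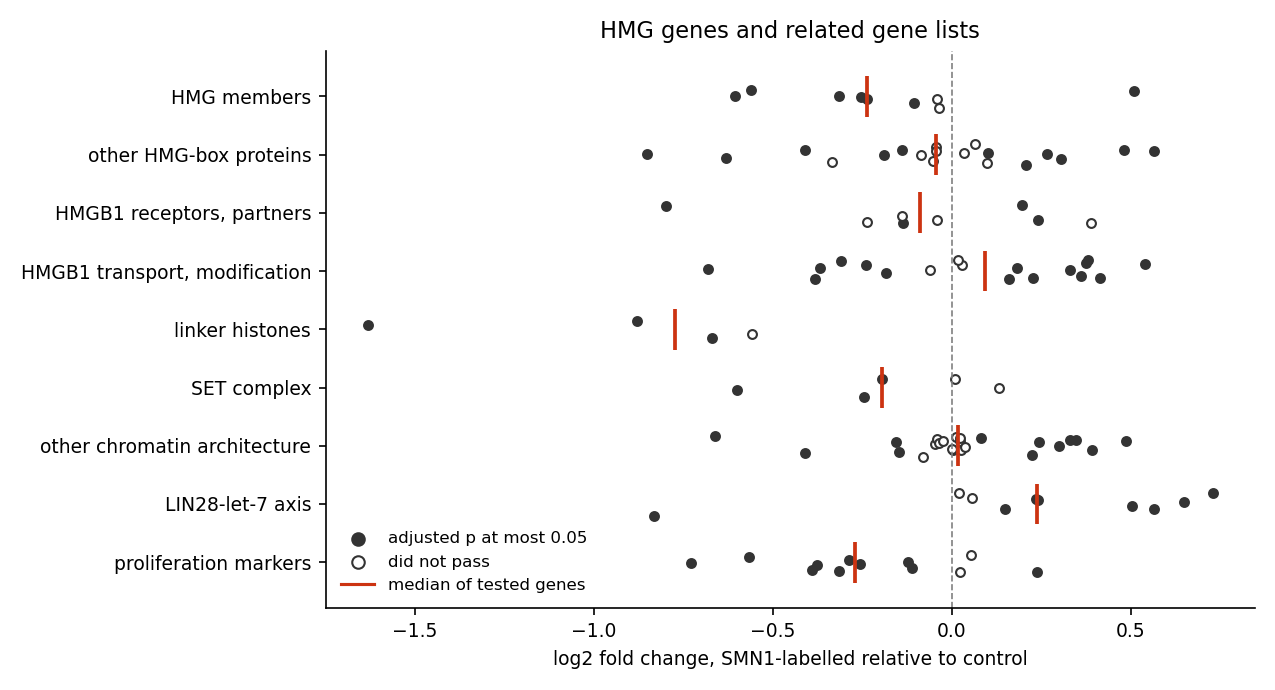
Log2 fold change of each tested gene in the HMG family and in 8 lists of related genes; filled points passed an adjusted p of 0.05 and red bars are list medians. The linker histones (median -0.77) and the proliferation markers (median -0.27) lie mostly below 0. Genes of the LIN28 and let-7 pathway (median 0.24) lie mostly above, while the other HMG-box genes spread to both sides. With length and GC content corrected for, the architectural proteins go from 8 higher and 4 lower to 3 higher and 12 lower of 24.

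HMGB1, HMGB2 and HMGN2 are among the genes known to be high in dividing cells, so proliferation markers were measured beside them. All 12 were tested, with 9 lower and 1 higher (CDK1), and a median log2 fold change of -0.27. The higher call of CDK1 was lost with the correction for length and GC content (10 lower, none higher). It was also lost without control 1, control 2 or SMN1-labelled library 2. On log2(FPKM + 1), where the median of all genes was 0.06, 3 of the 12 markers were higher and 7 lower. Their summed level was 2235 to 2245 CPM in the controls and 1917 to 1927 CPM in the SMN1-labelled libraries. MCM5, a subunit of the replicative helicase, fell from 179 ± 1.40 to 108 ± 3.08 CPM, E2F1 fell from 43.0 ± 1.10 to 29 ± 0.478 CPM, and BIRC5 fell from 174 ± 4.64 to 134 ± 2.89 CPM, with adjusted p of 4.59e-14, 1.59e-10 and 3.21e-09 in edgeR's test. Mesenchymal neuroblastoma markers moved as well, with 5 of 8 lower, against 28.2% of all tested genes, none higher, and sums of 972 to 1007 CPM against 709.8 to 779.6 CPM. Schwann and glial markers (6 genes, 3 tested, 2 lower) summed to 3.83 to 5.34 CPM against 2.40 to 2.66 CPM, with SOX10, a defining gene, not listed. The share of reads from mitochondrial genes was 5.95% to 6.35% in the controls and 4.79% to 4.91% in the SMN1-labelled libraries. The part of these in the HMG differences was not tested.

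Over the 6 libraries, the genes whose log2 CPM was most like that of HMGB1 were FBLN1 and TIMELESS (Pearson r 0.9997 for both), followed by C12orf57, CDK5RAP1 and CRABP2 (0.9994 or more). Those most like HMGB2 were SF3B4, PPP1R15A, PSMC5, MDH2 and LAS1L (0.9995 or more). The 6 libraries fall into their 2 groups, so any gene with a difference and little spread correlates highly: 2569 of 10368 genes had r above 0.9 with HMGB1 and 2551 with HMGB2.

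**Figure D5:**
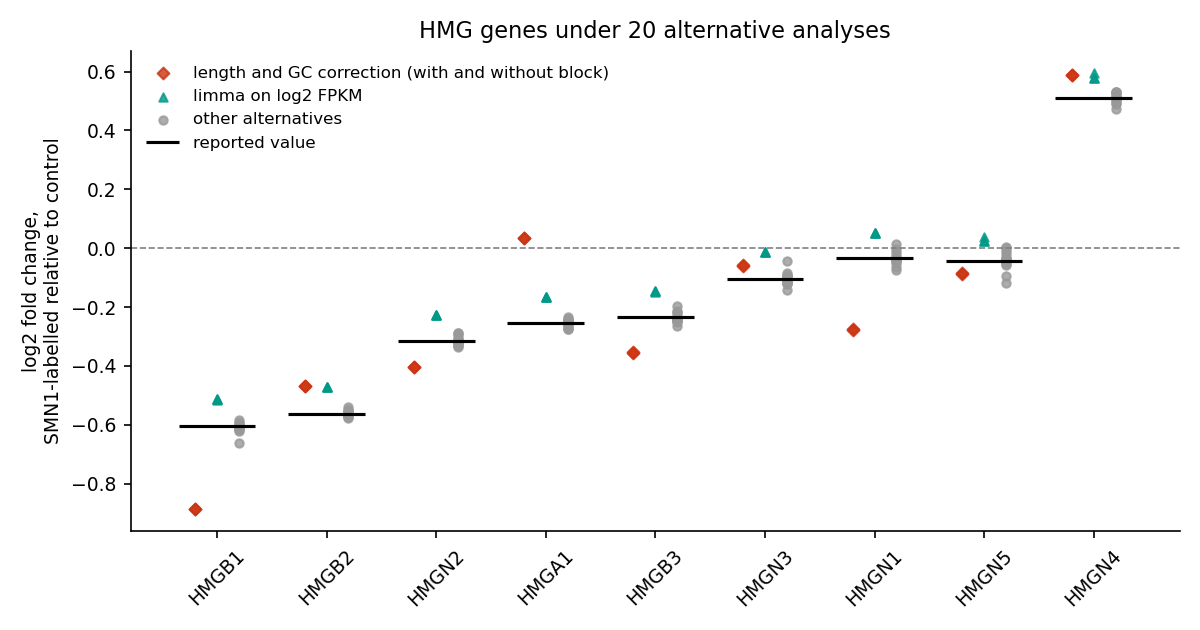
Log2 fold change of the 9 tested HMG genes as reported (black bars) and under 20 alternative analyses (points). HMGB1, HMGB2, HMGB3 and HMGN2 stay below 0 and HMGN4 above 0 in all 20, whereas HMGA1 rises to 0.03 and HMGN1 falls to -0.28 when length and GC content are corrected for.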

How the data were processed

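Total RNA of SH-SY5Y cells, 6 samples, was made into stranded mRNA libraries and sequenced as paired 150-base reads, per the labels' protocols. The submitters' processing notes name GRCh38, HISAT2 and DESeq2. The sources used here do not give the counting tool, annotation, strand setting or handling of reads with several matches. The authors deposited whole-number read counts per gene, without normalization. The authors also deposited FPKM, scaled by gene length and depth, for 28501 genes and rounded to 2 decimals.

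The count test used edgeR 4.0.16 under R 4.3.3 (normalization by TMM, default filterByExpr, quasi-likelihood fit with group as the only term, two-sided, Benjamini-Hochberg over 15829 genes, calls at 0.05). The SE was obtained as |log2 fold change| divided by the root of the F statistic, and intervals are 95%. Totals of 30379242 to 40275498 reads set the precision. Replicates differed beyond counting noise (2.41 to 4.12 chi-square units for each degree of freedom). All 6 were treated as separate samples, although such a spread does not show that they were separate cultures. Positions, lengths, GC content and transcript sequences came from GENCODE v29 on GRCh38, matched by identifier, and pseudogenes were aligned to HMGB1 with edlib 1.3.9. Exact permutation tests (scipy 1.17.1) of 3 against 3 cannot give p below 0.1. The gene tests were tested on simulated counts. These were drawn with edgeR's own dispersions and without group differences that follow length or GC content, unlike the real counts. The outcome is not reported here.

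Alternatives were DESeq2 1.42.0, limma-voom (limma 3.58.1), edgeR with size factors of DESeq2 or with upper-quartile scaling, no filter or 1 CPM in 3 or more libraries, a replicate block, leaving out 1 library at a time, limma on FPKM on a log2 scale (0.1 or 1 added, at least 0.5 FPKM in 3 libraries, or 1 added without that filter), removal of ribosomal protein and mitochondrial genes, pseudogene reads added to their gene, and a spline correction for length and GC content. On FPKM, fold changes refer to log2(value + pseudocount), which understates those of low genes. The FPKM were not adjusted by TMM factors. The genes, lists, tests and alternatives were chosen with earlier results of these data known. The genes named are the 10 HMG genes, SMN1, SMN2, AGER, TLR2 and TLR4, up to 3 called genes of each list in order of p, every member of a list of fewer than 7 genes, and the 5 genes at 5 CPM or more most correlated with HMGB1 and with HMGB2. A gene that this rule names is not reported here. CDK1, TH, SOX10, HMGN3-AS1 and the pseudogenes were named after their values were seen.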

Additional observations from a re-analysis of the deposited data

How the results depend on the processing

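HMGB1, HMGB2, HMGB3 and HMGN2 were called lower and HMGN4 higher in all 20 alternatives, with log2 fold changes of -0.89 to -0.51, -0.58 to -0.47, -0.36 to -0.15, -0.40 to -0.23 and 0.47 to 0.60. With the length and GC correction, HMGA1 was at 0.0339 (adjusted p 0.391) and HMGN1 at -0.2750 (1.92e-05), and SET at -0.1280. With that correction and the replicate block they were at 0.0341, -0.2771 and -0.1285. On FPKM, SET was instead called higher (0.0963 to 0.0967). HMGN3 lost its call with DESeq2 (-0.0936), no filter (-0.0834), the length and GC correction (-0.0593, and -0.0576 with the replicate block) and FPKM (-0.0137 with 0.1 added, -0.0136 with 1 added, with and without a filter). Leaving out 1 library moved it between -0.1430 and -0.0451. The numbers of same-numbered libraries did not pair them (correlations of deviations 0.0053, 0.0133 and 0.003), and with the replicate block HMGN3 was at -0.1019 (adjusted p 0.0551), the only HMG gene whose call it ended. SMN2 on FPKM without a filter was at -0.1559. Genes called lower numbered 4466, but 2963 and 2965 on log2(FPKM + 0.1) and log2(FPKM + 1) and 2883 without a filter; higher calls on log2(FPKM + 1) numbered 4967 against 4426. The median log2 fold change of all genes was 0.0009 as reported, 0.0862 on log2(FPKM + 0.1) and 0.0613 on log2(FPKM + 1). On log2(FPKM + 1) without a filter it was 0.0042. The causes were not tested. Of 558 values of 28 related genes, HMGB1P5 and HMGB1P6 included, 547 kept their side of the threshold, and the called values among them kept direction. A change of sign between values that were not called was not counted. Most of these genes were named for a small p in these data, so a high count was largely fixed beforehand. Depth limits HMGA2, which had too few reads for a test, and HMGN5, whose interval is the widest of the family.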
